A study of Mus musculus with 16 samples.

Results

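Fgf15 and the genes of 4 nuclear receptors tied to its regulation, Nr1h4 (FXR), Rxra (RXRα), Nr5a2 (LRH-1) and Nr0b2 (SHP), were examined in RNA sequencing of mouse terminal ileum. The 5 genes were chosen by symbol from a table of 24940 genes. The 16 libraries formed 4 groups of 4 mice: male WT (MWT), male LKO (MLKO), female WT (FWT) and female LKO (FLKO). WT mice were Bcl6fl/fl, with loxP-flanked Bcl6, and LKO mice were Bcl6LKO, which carried the same floxed alleles and Cre recombinase driven by the albumin promoter. That promoter acts in hepatocytes, so the deletion is hepatic and the ileum of LKO mice is not itself a knockout tissue. All mice were on a C57BL/6 background, and the tissue was the end of the ileum before the cecum, on whose length the labels and the study's methods differ. The methods name free feeding or a short fast as the usual states of the study's mice. Which of these applied to these ilea, the age of the mice and the hour of collection were not given in the sources used here.

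FXR is the nuclear receptor for bile acids (BAs). In the enterocytes of the terminal ileum, BAs taken up from the lumen bind FXR, which pairs with RXRα on DNA and induces the hormone gene Fgf15. The hormone travels in portal blood to the liver, where it acts through FGFR4 and its co-receptor β-Klotho to repress BA synthesis. LRH-1 activates genes of sterol handling and steroid synthesis in the gut, and SHP, an orphan receptor without a DNA-binding domain, represses the activity of other nuclear receptors, LRH-1 among them.

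On mm10, Fgf15 (NM_008003) lies on the plus strand of chromosome 7 from 144896532 to 144900951, Nr1h4 (NM_001163504) on the minus strand of chromosome 10 from 89454234 to 89533622, and Rxra (NM_011305) on the plus strand of chromosome 2 from 27677201 to 27763319. Nr5a2 (NM_030676) lies on the minus strand of chromosome 1 from 136843584 to 136960448, and Nr0b2 (NM_011850) on the plus strand of chromosome 4 from 133553376 to 133556686. Counts covered the exons of each gene, and 0 other genes of the table overlapped any of these intervals. RefSeq promoter windows (GRCm38.p6) were at hand for 4 of the 5 genes, with 6 windows in all, and none was at hand for Fgf15. The Nr1h4 window (from 89506659), an Nr5a2 window (from 136953631) and an Rxra window (from 27709042) lay inside the intervals above. Their starts are therefore other than those of the transcripts named. The 250 bases before the start were searched on both strands for TCAAGG, the core that LRH-1 binds, and for AGGTCA, the motif bound by many nuclear receptors. Nr0b2 held TCAAGG at 2 places, with first bases at -68 and -35 counted from the transcription start, and the other 5 windows held none. AGGTCA had its first base at -214 in the Nr1h4 window, at -64 in an Nr5a2 window, and at -87 and -48 in an Rxra window. The remaining windows, that of Nr0b2 among them, held no AGGTCA. The Nr0b2 window is shown because it is the promoter among these genes that carries the LRH-1 core, on the plus strand at chr4:133553126-133553375, with that core in capitals.
Nr0b2: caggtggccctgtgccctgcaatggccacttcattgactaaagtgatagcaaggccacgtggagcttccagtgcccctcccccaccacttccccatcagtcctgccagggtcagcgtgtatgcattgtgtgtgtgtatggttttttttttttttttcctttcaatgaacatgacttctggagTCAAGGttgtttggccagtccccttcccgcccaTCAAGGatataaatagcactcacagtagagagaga
Of all 32851 windows in the table, 12.5% held TCAAGG and 14% held AGGTCA. AGGTCANTGACCT, the inverted repeat with 1 base between that FXR and RXRα bind together, was in none of the 6 windows and in 2 of all windows, or 0.00609%. These matches describe letters in a window and are not evidence of binding.

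The gene counts of 15 libraries summed to between 15.7 and 20.5 M, and FLKO replicate 1 had 60.3 M. Fabp6 (2690 to 5422 CPM, the counts-per-million value) and Slc10a2 (426 to 816 CPM), which encode the ileal BA-binding protein and the apical BA uptake transporter, were high in every library. Alb stayed between 0.33 and 3.31 CPM. Bcl6 itself was present in both genotypes, at 9.24 to 26.1 CPM over the 16 libraries. In 4 libraries the summed CPM of 12 B cell markers lay between 102 and 536, against 31.5 to 48.2 CPM in the other 12. These were MWT replicate 2, FWT replicate 3 and FLKO replicates 2 and 3, and values without them, in the comparisons that hold them, are given below for the calls and values that moved most.

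Per exon length (RPKM, the CPM divided by the exon length in kilobases), the order of the mean levels over the 16 libraries was Nr1h4, Rxra, Fgf15, Nr5a2 and Nr0b2. Nr1h4 lay between 84.9 and 121 RPKM and Rxra between 39.5 and 46.3 RPKM, so these 2 did not overlap in any library. Nr5a2 lay between 7.23 and 11.7 RPKM. Fgf15 spanned 0.952 to 51.0 RPKM and crossed its neighbors in the order: it was above Nr5a2 in 0 of 4 MWT, 4 of 4 MLKO, 3 of 4 FWT and 4 of 4 FLKO libraries, and above Rxra in 1 library, of the FLKO group. Nr0b2 did not exceed 0.558 RPKM. For scale, Fabp6 averaged 7740 RPKM, a level that 4 of the 15598 genes tested exceeded.

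Fgf15, the ligand, differed most between animals among the 4 members well above detection. The 4 MWT ilea had 1.72, 16.3, 4.55 and 1.80 CPM. The 4 MLKO ilea had 33.5, 34.8, 27.0 and 54.9 CPM. No MLKO value reached down to the MWT range, and MWT replicate 2 stood above the other 3 MWT animals. In females, the FWT ilea had 22.0, 72.9, 2.69 and 44.7 CPM, and the FLKO ilea had 51.7, 48.2, 91.9 and 72.8 CPM. The female groups overlapped, because FWT replicate 2 lay within the FLKO range, while FWT replicate 3 lay within the MWT range. By the numbers in the sample titles, every MWT animal came before every MLKO animal, so male genotype and title order are aligned. In females the numbers of the 2 genotypes interleave, and FWT replicate 3 has the number next after MWT replicate 3. What these numbers stand for was not given in the sources used here. Between the lowest and the highest of the 16 animals the level differed 53.6-fold. In bulk tissue, fewer Fgf15-expressing cells and less Fgf15 RNA per cell cannot be told apart.

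**Figure D1:**
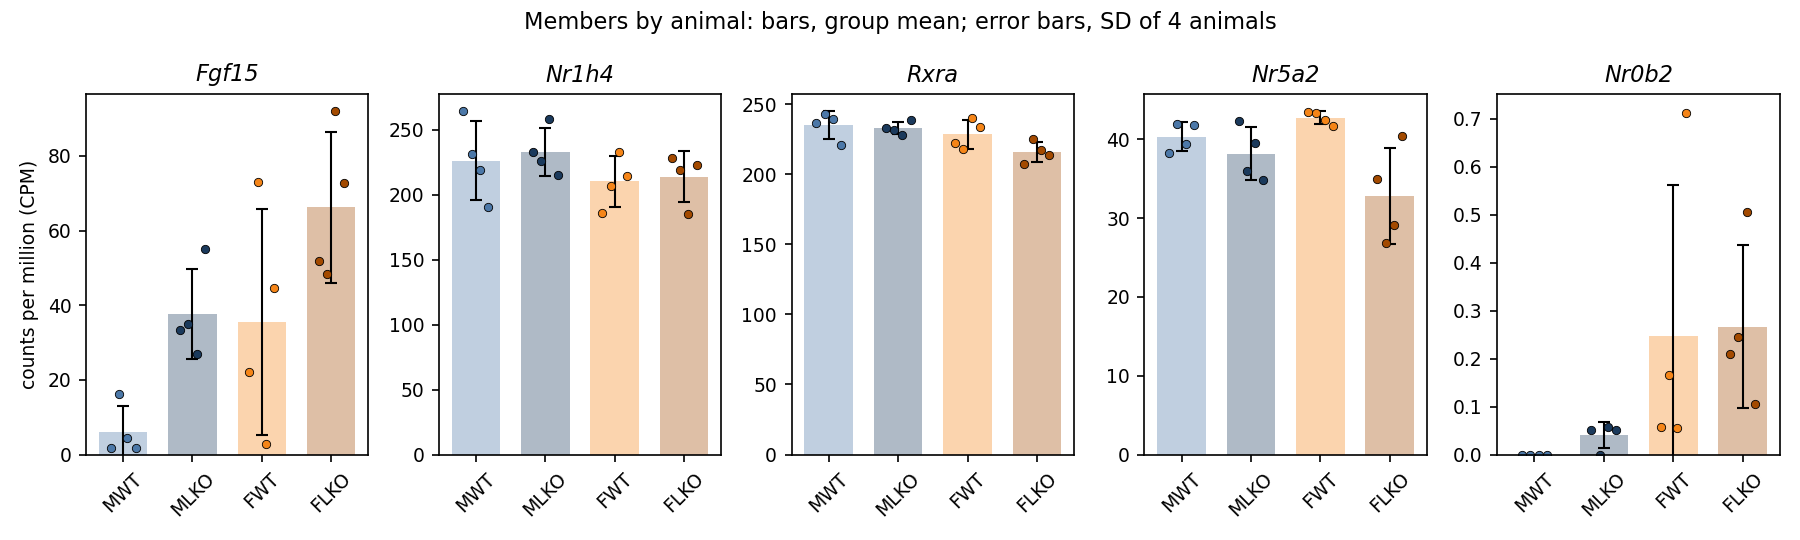
CPM (y axis, from 0, on a separate scale for each gene) of the 5 genes in the 4 groups, with 1 point per animal, bars at the group mean and error bars of 1 SD (n = 4 each). Fgf15 spreads from 1.72 to 91.9 CPM, whereas Nr1h4 and Rxra keep to 185 to 264 and 207 to 243 CPM, and Nr0b2 reaches at most 0.713 CPM.

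The spread of Fgf15 was then set beside that of all genes. Within groups, the pooled SD of its log2 CPM was 1.31, and 17 of the 14423 genes with a mean of at least 1 CPM had a larger one (percentile 99.9). Those 17 included 6 of the B cell marker list, among them Fcmr, Cr2, Pax5, Ms4a1 and Cxcr5, and the colonic genes Car1 and Aqp8. The receptors lay elsewhere in the distribution: the pooled SD was 0.15 for Nr1h4 (percentile 49.8) and 0.15 for Nr5a2 (percentile 51.5), against a median of 0.15 over all genes. For Rxra it was 0.053, and 1.23% of the genes had a smaller spread.

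**Figure D2:**
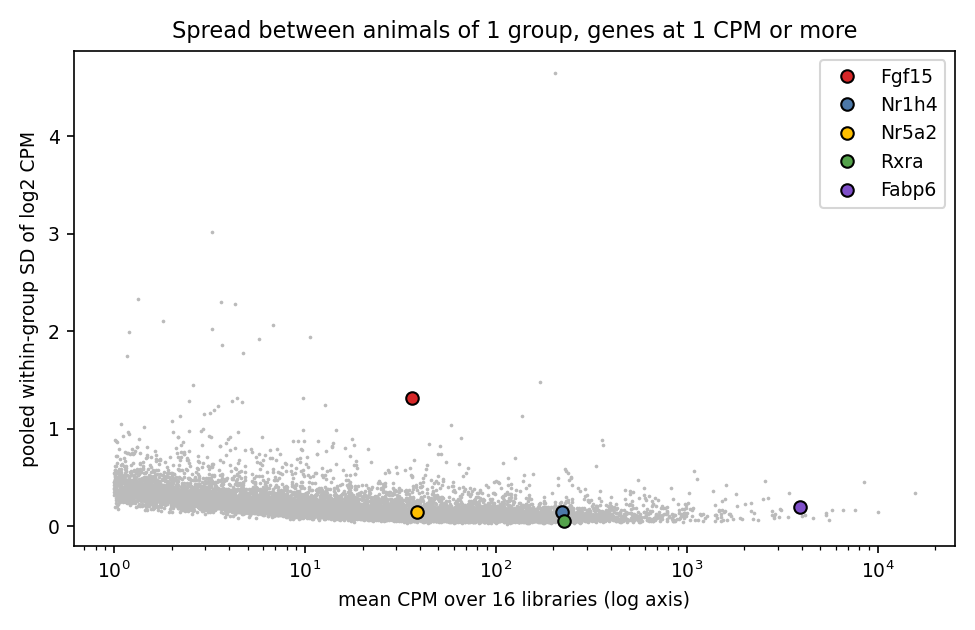
Pooled within-group SD of log2 CPM (y axis) against the mean CPM over 16 libraries (x axis, log scale) for 14423 genes (gray points), with Fgf15, 3 receptor genes and Fabp6 in color. Fgf15 at 1.31 sits far above genes of its level, and Rxra at 0.053 lies near the lower edge.

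Within the MWT group the coefficient of variation of Fgf15 was 114%, and within FWT it was 85.0%. In MLKO and FLKO it was 32.1% and 30.7%. Whether the spread differs between the genotypes was not tested. The lowest Fgf15 count in any library was 34 and the highest 3203, so counting error is small beside the spread between animals.

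Nr1h4, the gene of the BA receptor itself, had nearly the same level in all groups. It measured 264, 231, 219 and 191 CPM in MWT, 233, 226, 258 and 215 CPM in MLKO, 186, 207, 233 and 214 CPM in FWT, and 228, 219, 185 and 223 CPM in FLKO. All 4 ranges overlapped. Between LKO and WT the log2 difference was 0.05 (SE 0.093) for males, 0.03 (SE 0.084) for females and 0.16 (SE 0.082) for females without the B cell-rich libraries. Between males and females it was 0.10 (SE 0.097) in WT and 0.12 (SE 0.078) in LKO, or 0.15 (SE 0.12) and 0.041 (SE 0.080) without the B cell-rich libraries. With single libraries left out the genotype difference ran from -0.03 (without MWT replicate 4) to 0.13 in males and from -0.03 (without FWT replicate 1) to 0.09 in females.

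Rxra, the partner of FXR, was the steadiest member. Its group means were 235 ± 9.96 CPM in MWT, 233 ± 4.56 CPM in MLKO, 229 ± 10.1 CPM in FWT and 216 ± 7.30 CPM in FLKO (SD, n = 4 each). The lowest of the MLKO ilea (228 CPM) was above the highest of the FLKO ilea (225 CPM), a log2 difference of 0.11 (SE 0.053), or 0.14 (SE 0.067) without the B cell-rich libraries, and among the genes tested in that comparison 12.9% likewise had groups without overlap. The ratio of Rxra to Nr1h4 per exon length was 0.435 ± 0.047 in MWT, 0.417 ± 0.039 in MLKO, 0.452 ± 0.030 in FWT and 0.422 ± 0.049 in FLKO (SD, n = 4 each), with overlapping ranges. The other RXR genes were lower, Rxrb at 20.8 to 25.1 RPKM and Rxrg at most at 0.335 RPKM.

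Nr5a2, which encodes LRH-1, was lower in the FLKO ilea. The FWT ilea had 43.4, 43.4, 42.5 and 41.7 CPM, within a CV of 1.95%, and the FLKO ilea had 35.02, 26.8, 29.1 and 40.4 CPM. Every FLKO animal was below every FWT animal, as in 6.31% of the genes tested in females. The log2 difference was -0.38 (SE 0.11), with an edgeR adjusted p of 0.285. In males the MWT ilea had 38.3, 41.9, 39.4 and 41.8 CPM and the MLKO ilea 42.4, 36.0, 39.5 and 34.9 CPM, which overlapped. The 2 lowest Nr5a2 values of the series, in FLKO replicates 2 and 3, were those of the libraries with the highest B cell marker sums, 287 and 536 CPM. Without the 4 libraries rich in B cell markers the female log2 difference was -0.19 (SE 0.091, edgeR adjusted p 0.777), and the part of these markers in the result was not tested further. Between the sexes in LKO the log2 difference of male to female was 0.21 (SE 0.12), and 0.022 (SE 0.099) without those libraries. MWT replicate 2, at 166 CPM of B cell markers, had 41.9 CPM of Nr5a2, the highest of its group.

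**Figure D3:**
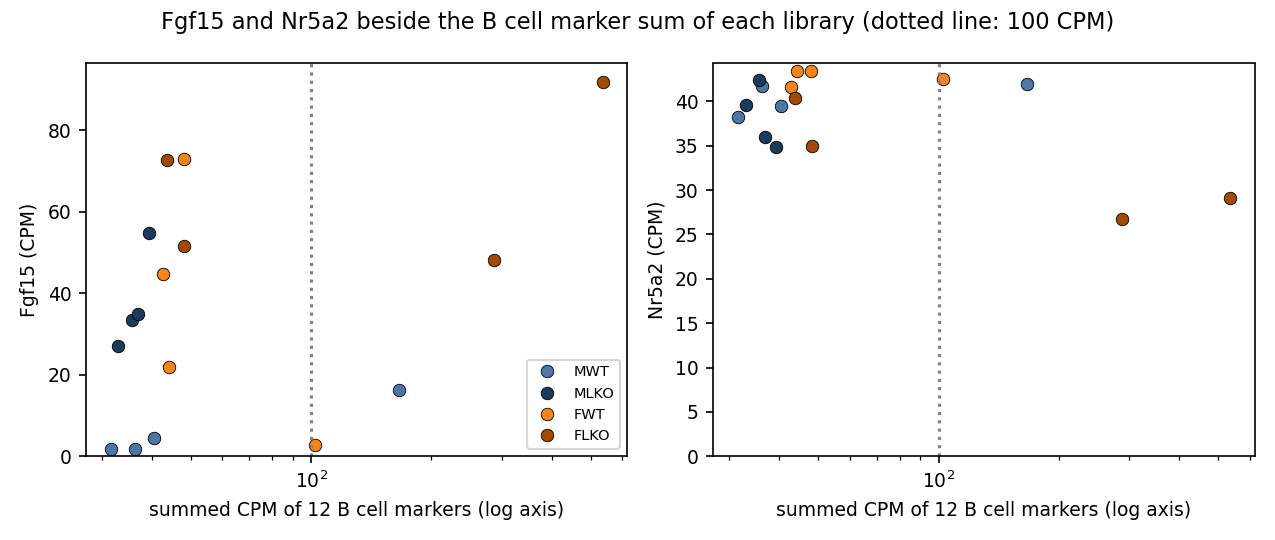
Fgf15 (left) and Nr5a2 (right) in CPM against the summed CPM of 12 B cell markers in each of the 16 libraries (x axis, log scale, dotted line at 100 CPM), with colors for the groups. The 2 libraries farthest right, both FLKO, have the lowest Nr5a2 values, 26.8 and 29.1 CPM, while Fgf15 to the right of the line ranges from 2.69 to 91.9 CPM.

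Nr0b2, the gene of SHP, was at the limit of detection, and nearly all of its counts came from females. Its counts were 0, 0, 0 and 0 in MWT, 1, 0, 1 and 1 in MLKO, 1, 3, 1 and 13 in FWT, and 13, 4, 9 and 2 in FLKO. The 8 male libraries together held 3 counts in 149 M gene counts, and the 8 female libraries held 46 counts in 183 M. All male libraries and 4 of the female libraries were at or below 3 counts, the floor used here for detection in a library. The 13 counts of FLKO replicate 1 came from the deepest library and equal 0.21 CPM, whereas the 13 counts of FWT replicate 4 equal 0.713 CPM. Pooled over the group, a floor of 3 counts in the 73.7 M of MWT equals 0.041 CPM. The 0 counts of MWT have an exact Poisson upper 95% limit of 0.0501 CPM. FWT had 0.255 CPM (95% exact Poisson interval 0.151 to 0.403). The pooled FWT value was 6.26 times that floor of 3 counts over the MWT group, which is not a lower bound of the ratio. The exact 95% interval of the ratio of FWT to MWT, which also covers the counting error of FWT, starts at 4.59. FWT replicate 4 carried 13 of the 18 FWT counts, and without it the value against the floor was 2.33-fold. Between FLKO and MLKO the ratio of pooled counts was 6.21 (exact 95% interval 1.92 to 31.9, for counting error only), and 4.98 to 7.18 with single FLKO libraries left out. In CPM, the females of each genotype lay above the males of that genotype, an order that rests in part on libraries with 0 to 3 counts. Among the genes tested, 8.38% had groups without overlap between the sexes in WT and 12.9% in LKO. In both sexes the level is far under that of the other members, and the filter on low counts removed Nr0b2 from the main edgeR fits below. With no filter, edgeR gave a log2 difference of male to female of -5.21 (SE 1.55, adjusted p 0.202) in WT and -2.49 (SE 0.78, adjusted p 0.115) in LKO. DESeq2 gave -4.61 (SE 1.53) and -2.67 (SE 1.13) without an adjusted p. The WT values depend on the prior count, since all MWT libraries are at 0.

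The 4 comparisons of groups were each fitted over all genes with edgeR. In males, 0 of the 4 members tested passed an adjusted p of 0.05, where 8 of 15169 genes (0.0527%) did. In females 0 of 4 passed, against 6 of 15298 genes (0.0392%). Between the sexes 0 of 4 passed in WT, against 38 of 15229 genes (0.25%), and 0 of 4 in LKO, against 15 of 15250 genes (0.0984%). The interaction of genotype and sex gave 0 of 4 members and 0 of 15598 genes (0%). At an unadjusted p under 0.05 edgeR had 879 genes for the interaction, and DESeq2 also called 0. At that unadjusted p the member in males was Fgf15, where 5.29% of all genes passed it, and in females it was Nr5a2, where 11.7% did. Between the sexes it was none in WT (13.9% of genes) and Fgf15 in LKO (22.6%), and for the interaction it was Nr5a2 (5.64%). DESeq2 called no member in any comparison.

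Fgf15 had the largest of these differences by size in each of the 4 comparisons. MLKO exceeded MWT by 2.69 on the log2 scale (SE 0.73), or 6.47-fold, with an edgeR adjusted p of 0.656. By exact two-sided permutation the mean log2 CPM differed by 3.18 (p = 0.0286, and 0.143 after Benjamini-Hochberg adjustment over the 5 Fgf15 comparisons). That unadjusted p is the smallest possible for 4 against 4 animals and is reached whenever 2 groups do not overlap. It therefore adds nothing to the lack of overlap, which held for 2.97% of the genes tested in males. Without MWT replicate 2, the B cell-rich library of that group, the edgeR difference was 3.83 (SE 0.46, adjusted p 0.154). That library had the highest Fgf15 of MWT (16.3 CPM), so leaving it out had to widen the difference. The female difference was 0.89 (SE 0.79), smaller than the spread of the FWT ilea, and it was 0.41 (SE 0.61) without the B cell-rich libraries. Those libraries held the lowest Fgf15 of FWT (2.69 CPM) and both the lowest and the highest of FLKO (48.2 and 91.9 CPM). Leaving out that FWT library had to narrow the female difference. The mean log2 CPM of the female groups differed by 1.60 (exact permutation p = 0.143).

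Between the sexes Fgf15 was lower in males of both genotypes. In WT the log2 difference of male to female was -2.62 (SE 1.13, edgeR adjusted p 0.380), and it was -4.14 (SE 0.70, adjusted p 0.175) once MWT replicate 2 and FWT replicate 3 were left out. These had the highest Fgf15 of MWT (16.3 CPM) and the lowest of FWT (2.69 CPM), so leaving them out had to widen the log2 difference. In LKO it was -0.81 (SE 0.29, edgeR adjusted p 0.177), from 37.6 ± 12.1 CPM in MLKO to 66.2 ± 20.3 CPM in FLKO (SD, n = 4 each), and MLKO replicate 4 lay within the FLKO range. Without the B cell-rich libraries it was -0.72 (SE 0.32) in LKO. The mean log2 CPM differed by -2.40 in WT and by -0.82 in LKO (exact permutation p 0.114 and 0.0857). On the log2 scale the genotype difference of males exceeded that of females by 1.80 (SE 1.10, edgeR adjusted p 0.851), and by 3.42 (SE 0.79) without the 4 B cell-rich libraries, where the edgeR adjusted p was 1.000. Leaving out MWT replicate 2 had to widen the male difference, and leaving out FWT replicate 3 had to narrow the female one. The larger excess was therefore a forced move. For the mean log2 CPM of all libraries the excess was 1.58 (exact permutation p = 0.425). On the CPM scale the genotype difference was 31.5 CPM in males and 30.6 CPM in females, an excess of 0.894 CPM (exact permutation p = 0.972), so the excess in males was present on the log2 scale and not on the CPM scale. The genotype comparisons share their libraries with the sex comparisons and are not independent of them.

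**Figure D4:**
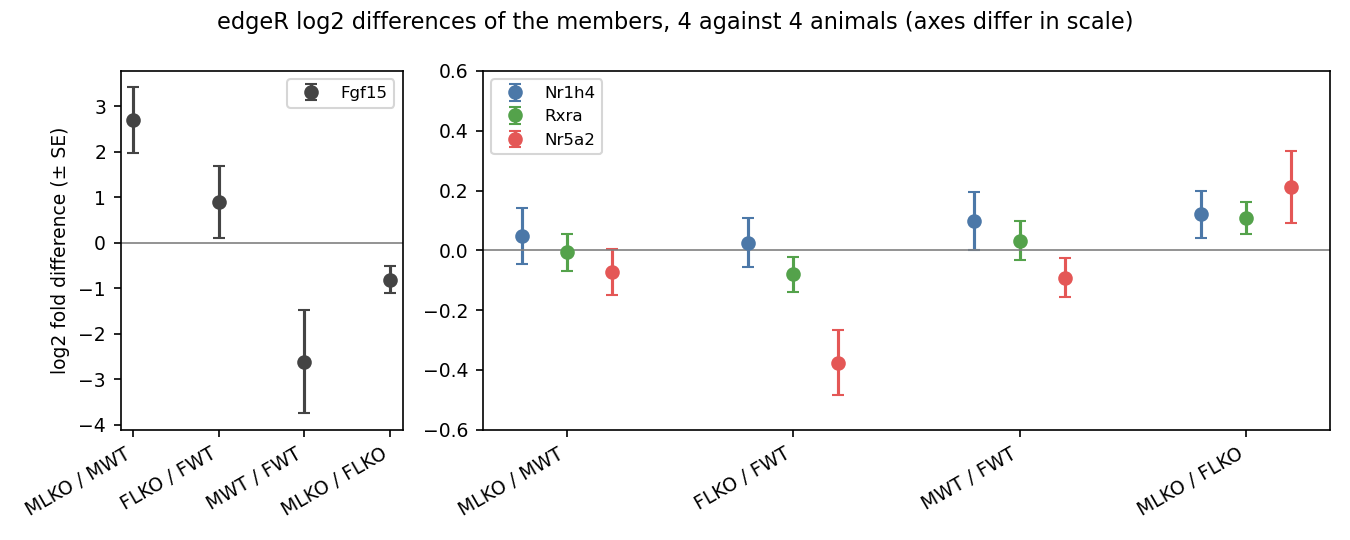
Log2 fold differences (points, edgeR) with 1 SE (bars) of Fgf15 (left) and of Nr1h4, Rxra and Nr5a2 (right, on a narrower axis) in the 4 comparisons of 4 against 4 animals. Fgf15 ranges from -2.62 (MWT against FWT) to 2.69 (MLKO against MWT), and the receptor farthest from 0 is Nr5a2 at -0.38 in FLKO against FWT.

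Next, genes that moved with Fgf15 between animals of the same group were sought, by adding the log2 Fgf15 level of each animal, taken as its deviation from the group mean, to a model with the 4 groups. A slope is then the log2 change of a gene per log2 unit of Fgf15. None of the 3 receptors tested passed, and neither did any of the 15597 genes (0%). The smallest adjusted p was 0.970 under edgeR, with 672 genes at an unadjusted p under 0.05, and DESeq2 called 0 as well. The slope was -0.034 (SE 0.028) for Nr1h4, 0.0048 (SE 0.031) for Nr5a2 and -0.0033 (SE 0.017) for Rxra. Across the 16 animals, Pearson's r of the deviations from the group means was -0.28 for Nr1h4 (Spearman's rho -0.38, permutation p 0.377 and 0.215), 0.045 for Nr5a2 (rho -0.041, permutation p 0.730 and 0.864) and -0.078 for Rxra (rho 0.10, permutation p 0.840 and 0.757). These belong to a family of 7 relations, in which every Benjamini-Hochberg adjusted permutation p for r was 0.147 or more. Without the 2 animals farthest from the median of Fgf15, FWT replicate 3 and MWT replicate 2, the 3 values of r were -0.20, -0.019 and 0.12. Among the receptors, r was 0.17 between Nr1h4 and Nr5a2, 0.32 between Nr1h4 and Rxra and -0.43 between Nr5a2 and Rxra (permutation p 0.612, 0.326 and 0.0758, rho 0.28, 0.25 and -0.48). Without the 2 animals farthest on the first gene of each pair these became 0.12, 0.13 and -0.39.

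Among the FXR targets, Fabp6 had the smallest p for a slope on Fgf15. It measured 2992, 3633, 2878 and 2690 CPM in MWT, 3832, 3852, 3928 and 4203 CPM in MLKO, 4229, 4534, 3634 and 5422 CPM in FWT, and 3308, 4770, 4526 and 3982 CPM in FLKO. MWT replicate 2 was highest in its group for both Fabp6 and Fgf15, MLKO replicate 4 likewise, and FWT replicate 3 was lowest in its group for both. FLKO replicate 2 went against this, with the highest Fabp6 and the lowest Fgf15 of its group. The slope was 0.10 (SE 0.030, edgeR adjusted p 0.970), and 0.081 (SE 0.063) without the 4 B cell-rich libraries. Pearson's r of the deviations was 0.67 and Spearman's rho 0.56 over 16 animals (permutation p 0.0211 and 0.0550, adjusted over the 7 relations 0.147 and 0.220). Without FWT replicate 3 and MWT replicate 2, r was 0.46 (permutation p 0.211), so the relation rests in part on those animals.

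**Figure D5:**
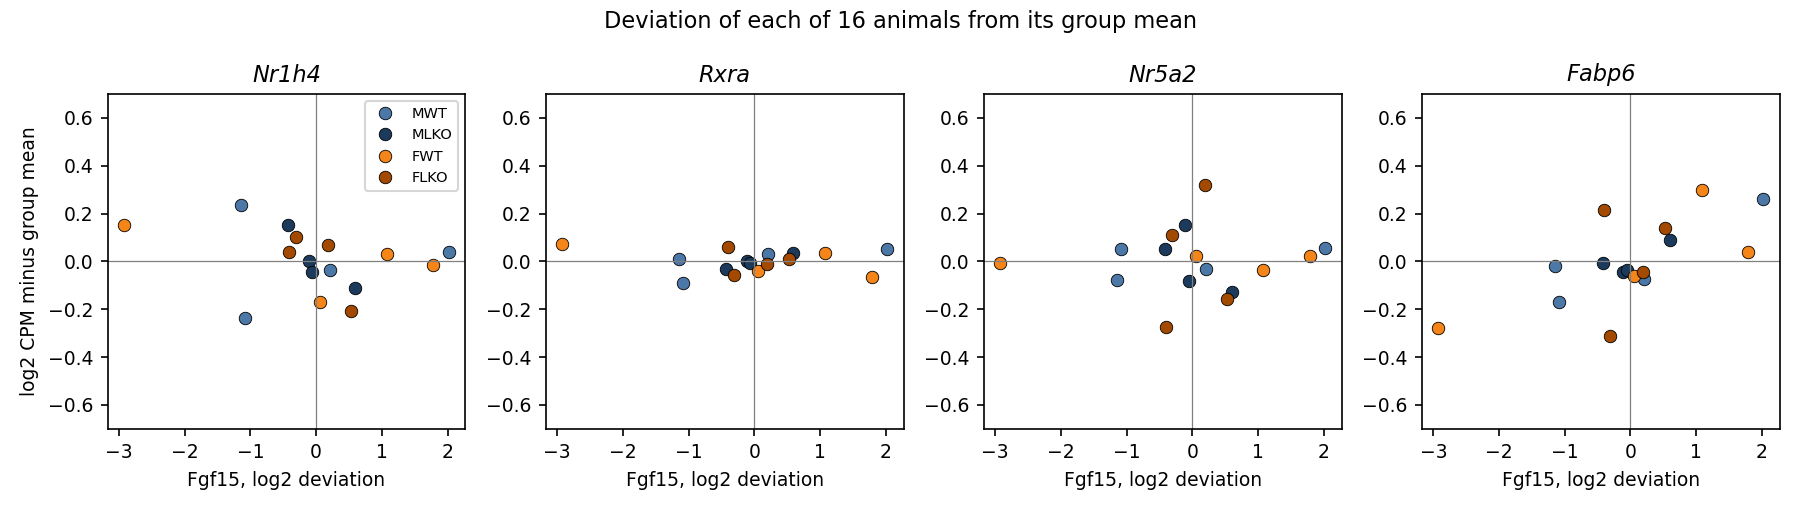
Deviation of log2 CPM from the group mean for Nr1h4, Rxra, Nr5a2 and Fabp6 (y axes, same scale) against that of Fgf15 (x axis), with 1 point per animal colored by group. Fgf15 deviates from -2.93 to 2.03 log2 units, over which r is -0.28 for Nr1h4, -0.078 for Rxra, 0.045 for Nr5a2 and 0.67 for Fabp6.

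The genes with the smallest p for a slope on Fgf15 are named by the rule that applies when none pass, and they are a ranking only. Those with positive slopes included Derl3 (slope 0.14, SE 0.033, r = 0.80), a component of endoplasmic reticulum-associated degradation, Mrgprf (0.14, SE 0.034, r = 0.86), Psd (0.098, SE 0.025, r = 0.78) and 9030619P08Rik (0.32, SE 0.083, r = 0.77). Mrgprf lies on chromosome 7 from 145300909 to 145309557, the chromosome of Fgf15, and ranged from 5.95 to 10.3 CPM. The 5 negative ones were Kbtbd3 (slope -0.20, SE 0.049, r = -0.87), Hif1a (-0.11, SE 0.029, r = -0.73), which encodes the oxygen-regulated subunit of HIF-1, Slc5a8 (-0.10, SE 0.027, r = -0.70), a transporter of monocarboxylates, Rab8b (-0.11, SE 0.030, r = -0.71) and Raph1 (-0.11, SE 0.032, r = -0.68). The genes named here had the same edgeR adjusted p of 0.970, and all kept the sign of their slope in each fit with 1 library left out and without the 4 B cell-rich libraries, where Slc5a8 had -0.067 (SE 0.072) and Raph1 -0.043 (SE 0.087).

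With the groups left in, so that r also reflects sex and genotype, the genes most like Fgf15 over the 16 libraries were Ch25h (r = 0.87, rho 0.76), the cholesterol 25-hydroxylase, Trip6 (r = 0.86, rho 0.77), Pth1r (r = 0.83, rho 0.82), Sqstm1 (r = 0.81, rho 0.78), which encodes the autophagy adaptor p62, and Tnfrsf17 (r = 0.81, rho 0.75), a receptor of plasma cells. These are the highest of all genes at 1 CPM or more and carry no test. Ch25h averaged 1.14 CPM and Sqstm1 271 CPM.

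In males alone, 16 genes passed the slope test, all with positive slopes, and they included the B cell genes Cd79a (slope 0.58, SE 0.066, edgeR adjusted p 0.00349), Cd79b, Cd22, Blk and Cxcr5. In females alone 0 passed (edgeR, 546 genes at an unadjusted p under 0.05). MWT replicate 2 was the male with the most B cell marker RNA, 166 CPM against 31.5 to 40.3 CPM in the other 7, and its Fgf15 was 9.47 times that of the lowest MWT animal. Without that library 0 genes passed in males (edgeR, 1147 at an unadjusted p under 0.05). In females the B cell-rich FWT replicate 3 had the lowest Fgf15 of its group.

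The pathway genes around Fgf15 were counted by role. Of 12 FXR targets in the ileum, 0 passed for the LKO difference in males, with a median log2 difference of 0.16 against -0.0020 over all genes, and 0 in females, with a median of 0.00046 against 0.0070. At an unadjusted p under 0.05 edgeR had 4 of them higher in males, where 5.29% of all genes passed in either direction, and 2 higher and 1 lower in females, where 11.7% did. The smallest p in males was that of Fabp6, 0.38 on the log2 scale (SE 0.086, edgeR adjusted p 0.177), and in females that of Car12, -0.68 (SE 0.13, edgeR adjusted p 0.162). Without the B cell-rich libraries Fabp6 passed in males at 0.48 (SE 0.077, edgeR adjusted p 0.0335), its female value was -0.38 (SE 0.12, edgeR adjusted p 0.560), and the median of the 12 was 0.20 in males and -0.089 in females. MWT replicate 2 had the highest Fabp6 of MWT (3633 CPM), so leaving it out had to widen the male difference. Among the females left out were the lowest of FWT (3634 CPM) and the 2 highest of FLKO (4770 and 4526 CPM). The female value of Fabp6 therefore had to fall. Slc51b, a subunit of the basolateral BA exporter, had a male difference of 0.32 (SE 0.092) and a female one of 0.32 (SE 0.096). Between the sexes in WT, 1 of the 12 passed, against 0.25% of all genes. Ang, which encodes angiogenin, was lower in males by a log2 difference of -0.49 (SE 0.084, edgeR adjusted p 0.033), at 23.6 ± 1.15 CPM in MWT and 32.9 ± 3.10 CPM in FWT (SD, n = 4 each). Without the B cell-rich libraries Ang had -0.56 (SE 0.094, edgeR adjusted p 0.0454), and Fabp6 passed as well at -0.73 (SE 0.11, edgeR adjusted p 0.0233). For both genes MWT replicate 2 was highest in MWT and FWT replicate 3 lowest in FWT, so both differences had to widen. In LKO 0 of 12 passed. For the slope on Fgf15, 8 of the 12 were positive (50.2% of all genes were), with a median of 0.033 against 0.00015 over all genes. Osgin1 followed Fabp6 in that ranking with a slope of 0.12 (SE 0.044), while Slc10a2, the uptake transporter, had -0.064 (SE 0.066).

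Of 16 FXR coregulators, 0 passed in any of the 4 group comparisons or for the slope, and the median slope was -0.0020. At an unadjusted edgeR p under 0.05, the LKO difference in females was positive for 2 of them and negative for 5 (11.7% of all genes in either direction), with a median log2 difference of -0.085 against 0.0070 over all genes. Without the B cell-rich libraries 1 was lower at that p, where 1016 of 15487 genes passed in either direction, and the median was -0.092. Between the sexes in LKO their median was 0.099, against -0.00053 over all genes. Ppargc1a, a coactivator, had the smallest p among them for the slope (-0.078, SE 0.036). Of the 14 tested genes of the RXR family and its partners, 0 passed in each, and 11 of 14 slopes were positive with a median of 0.028. Of 13 other regulators of Fgf15 or of ileal identity 0 passed. Malrd1, a gene known to control Fgf15 output in the ileum, was at 197 ± 14.1 CPM in FWT and 163 ± 5.26 CPM in FLKO (SD, n = 4 each), a log2 difference of -0.28 (SE 0.064, edgeR adjusted p 0.192), or -0.19 (SE 0.073) without the B cell-rich libraries, and its slope on Fgf15 was -0.011 (SE 0.022). The identity factor Hnf4a had a slope of -0.014 (SE 0.017) and Cdx2 of 0.032 (SE 0.028).

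Of the 10 LRH-1 targets 7 were tested, and 0 passed. In females the median log2 difference of the 7 was 0.11, while Abcg5 had -0.18 (SE 0.065) and Abcg8 -0.17 (SE 0.090). Without the B cell-rich libraries 5 of the 7 were positive and 2 negative in females (median 0.16), and Abcg8 had -0.34 (SE 0.087, edgeR adjusted p 0.347). Abcg5 and Abcg8 encode the sterol exporter ABCG5/G8. In males the smallest p was that of Myc, 0.36 (SE 0.088, edgeR adjusted p 0.271). The steroidogenic targets Cyp11b1 and Hsd3b1 stayed below 0.152 and 0.062 CPM.

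For the receptors of the hormone in the ileum itself, Fgfr4 lay between 6.77 and 14.6 CPM and Klb, the gene of β-Klotho, between 0.759 and 3.11 CPM. Klb had a log2 difference of male to female of -0.75 (SE 0.22, edgeR adjusted p 0.183) in WT and -0.72 (SE 0.30, edgeR adjusted p 0.186) in LKO, or -0.62 (SE 0.26) and -0.38 (SE 0.32) without the B cell-rich libraries. Fgfr4 had a slope on Fgf15 of 0.11 (SE 0.051). Of the 5 tested genes of this list 0 passed, and Cyp7a1, the hepatic target of the hormone, was at 0 in all 16 libraries. Of the 5 tested neighbors of Fgf15 on chromosome 7 0 passed, and Oraov1 and Ccnd1 had negative slopes of -0.045 (SE 0.028) and -0.071 (SE 0.040), against the positive slope of Mrgprf.

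Other pathways that could vary with time or feeding were counted for the same animals. Of the 15 clock genes (14 tested between the sexes in WT) 0 passed in any comparison, and 10 of 15 slopes on Fgf15 were positive with a median of 0.014. Of 10 tested PPARα targets that respond to fasting, 1 passed for the LKO difference in females, against 0.0392% of all genes. Acadl, an acyl-CoA dehydrogenase, rose by 0.37 on the log2 scale (SE 0.055, edgeR adjusted p 0.043). The call was lost without the B cell-rich libraries (0.39, SE 0.075, edgeR adjusted p 0.200). In males Acadl was at 0.51 (SE 0.095, edgeR adjusted p 0.067). For the LKO difference 9 of the 10 were positive in each sex, with medians of 0.52 in males and 0.34 in females, against -0.0020 and 0.0070 over all genes. At an unadjusted edgeR p under 0.05, 6 were higher in males and 4 in females. Of all genes, 5.29% in males and 11.7% in females passed that p in either direction. Without the B cell-rich libraries 4 were higher at that p in males and 6 in females. There 617 of 15310 genes in males and 1016 of 15487 in females passed that p in either direction. The median slope of the 10 on Fgf15 was -0.0087. Of 16 cholesterol synthesis genes, 0 passed for the LKO difference, where 15 of 16 were negative in males (median -0.14, 6 at an unadjusted edgeR p under 0.05) and 16 of 16 in females (median -0.25, 13 at that p). The shares of all genes at that p were again 5.29% and 11.7%. Without the B cell-rich libraries 6 of the 16 in males (median -0.17) and 11 in females (median -0.25) were lower at that p. Over all genes 617 of 15310 and 1016 of 15487 then passed it, in either direction. Between the sexes in LKO 2 of the 16 cholesterol synthesis genes passed, against 0.0984% of all genes. Among them was Hmgcs1, which was higher in males by a log2 difference of 0.46 (SE 0.068, edgeR adjusted p 0.031). The median slope of the 16 on Fgf15 was -0.016.

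Markers of the other cell types in the tissue were set beside the slope in the same way, with 0 passing in any list. All 12 B cell markers had positive slopes (median 0.15), as did all 10 smooth muscle genes (median 0.082, 4 of them at an unadjusted p under 0.05) and all 9 enteroendocrine genes (median 0.025). Of all genes, 4.31% passed that edgeR p in either direction. Their share of positive slopes is given above with the FXR targets. All 6 genes of mesenteric fat had negative slopes (median -0.12). Without the B cell-rich libraries the positive slopes were 10 of 11 for B cells (median 0.094), 9 of 10 for smooth muscle (median 0.16, 6 at that p), 7 of 9 for enteroendocrine cells (median 0.040), 9 of 9 for Paneth cells (median 0.094) and 0 of 6 for fat (median -0.46). In that fit 676 of 15779 genes passed that p in either direction. The smooth muscle sum was 4437 to 4748 CPM in MWT, 3640 to 4736 CPM in MLKO, 4798 to 6960 CPM in FWT and 4985 to 6760 CPM in FLKO, so the male and female ranges of a genotype did not overlap. Of the single genes tested, 8.38% likewise had no overlap between the sexes in WT and 12.9% in LKO. The fat sum was 71.4 to 317 CPM in MWT and 62.0 to 125 CPM in MLKO, against 95.7 to 219 CPM in FWT and 141 to 328 CPM in FLKO. For the remaining lists, the median slope was 0.041 for distal ileum (8 of 9 positive), -0.040 for proximal small intestine (3 of 9), -0.0035 for colon (2 of 7), -0.018 for enterocytes (5 of 12), 0.034 for T cells (7 of 10), -0.0035 for Paneth cells (4 of 9), 0.0091 for goblet cells (6 of 8), -0.013 for crypt proliferation (2 of 10) and 0.058 for liver or pancreas (2 of 4). The part of these cell types in the Fgf15 differences was not tested.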

How the data were processed

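Poly(A) RNA of terminal ileum from 16 mice was sequenced as stranded single-end libraries. The authors aligned reads to mm10 with STAR 2.5.2, kept uniquely mapped reads and counted exons, condensed to 1 entry per gene, with HOMER 4.10, and the deposited values are raw counts per gene without adjustment, which the authors tested with DESeq2. All per-sample columns were used, and the strand setting of the counting was not given in the sources used here. Groups were taken from the sample titles.

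Counts were tested in R 4.3.3 with the edgeR 4.0.16 quasi-likelihood test (TMM scaling, filterByExpr by group, robust fits, Benjamini-Hochberg threshold 0.05), on the 8 libraries of a comparison or on all 16 for the interaction and the slope on Fgf15. Permutation tests were exact for 4 against 4 animals (70 relabellings) and used 100000 resamples for correlations. An SE is the log2 value divided by the square root of F. CPM used TMM, log2 CPM a prior count of 2, and RPKM the deposited exon length. On simulated counts with 200 changed genes no call had the wrong sign. Intervals and the floor of 3 counts cover counting error only. Depth was 15.7 to 60.3 M gene counts, and p-values measure the spread between these mice.

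The members, the 23 gene lists and the tests were chosen with earlier results of these data known. The rule for named genes took the 5 members, the slope genes past the threshold (otherwise the 5 smallest p in each direction at 1 CPM or more), the 5 genes most correlated with Fgf15, and per pathway list the genes that passed or those with the smallest p. Additional genes of those lists, and those of the spread and cell type lists, were named after their values were seen. Some genes that the rule named are not reported here. Alternatives were DESeq2 1.42.0, RLE scaling, no filter, a replicate block, the title number as covariate, 1 fit of all libraries, thinning of FLKO replicate 1, a prior count of 0.5, no group term, each sex alone and leaving out each library. Leaving out the 4 B cell-rich libraries (over 100 CPM of the markers) was added after seeing the data, as were the counting intervals of Nr0b2.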

Additional observations from a re-analysis of the deposited data

Results flagged for a closer look

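For Nr5a2, the genotype difference was tested against the other sex: the LKO difference in males exceeded that in females by 0.30 on the log2 scale (SE 0.14), at an unadjusted edgeR p of 0.0433 and an adjusted p of 0.845. The male difference was -0.07 (SE 0.078) and the female difference -0.38 (SE 0.11). With single libraries left out it lay between 0.22 (without FLKO replicate 2) and 0.41 (without FLKO replicate 4), and without the 4 B cell-rich libraries it was 0.13 (SE 0.13). Within the 16 combinations of 4 tested members and 4 groups, no animal stood apart by Dixon's criterion for 4 values.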

How the results depend on the processing

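No member passed the threshold in any of the 789 alternative values, and 26 of them changed sign. With the title number as covariate the male Nr5a2 difference was 0.062. Without the 4 B cell-rich libraries the male Rxra difference was 0.010, the Nr1h4 interaction -0.10, and the slopes on Fgf15 were -0.022 for Nr5a2 and 0.030 for Rxra. In males alone the Rxra slope was 0.032, without MWT replicate 2 it was 0.057 and that of Nr5a2 -0.072, and with no group term the Nr5a2 slope was -0.035. With single libraries left out, the ranges were -0.029 to 0.13 (male Nr1h4), -0.028 to 0.089 (female Nr1h4), -0.056 to 0.10 (Nr1h4 interaction), -0.039 to 0.010 (male Rxra), -0.0025 to 0.011 (Nr5a2 slope) and -0.012 to 0.024 (Rxra slope). Gene counts moved more. In males 8 genes became 63 with DESeq2, 25 with no filter, 16 with the replicate block, 3 with the title number, 4 in 1 fit of all libraries and 5 (without MWT replicate 1) to 29 (without MWT replicate 4) with a library left out. In females 6 became 154, 15, 15 with the block, 12 in 1 fit, 2 without the B cell-rich libraries and 0 (without FLKO replicate 1, 3 or 4) to 4. Between the sexes in WT 38 became 261, 71, 17 with the title number, 21 without the B cell-rich libraries and 9 (without FWT replicate 2) to 64 (without FWT replicate 4), and in LKO 15 became 1069, 139, 403 in 1 fit, 33 without the B cell-rich libraries and 7 (without FLKO replicate 1) to 665 (without FLKO replicate 4). The 15 higher and 23 lower genes between the sexes in WT became 15 and 12 with RLE scaling. The interaction had 0 to 1 with a library left out, and the slope 16 in males alone. Correlations of same-numbered deviations ran from -0.10 to 0.26, and those of animals with different numbers from -0.23 to 0.17. The 0.26 came from the female genotype comparison. In the other comparisons no same-numbered value exceeded the highest value of different numbers. With single libraries left out the female Fgf15 difference ran from 0.50 (without FWT replicate 3) to 1.51 (without FWT replicate 2). With the replicate block the male Fgf15 difference was 2.96 (SE 0.84) and the female one 1.23 (SE 1.09). The cause of these moves was not tested. Depth limits Nr0b2, which had at most 13 counts.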

Other observations

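Among the genes that varied more than Fgf15 between animals of a group, Car1, a colonic carbonic anhydrase, ranged from 0 to 1154 CPM. It was at 0.707, 5.93, 305 and 536 CPM in MWT, 0.865, 1154, 9.11 and 6.16 CPM in MLKO, 916, 0.440, 0.494 and 259 CPM in FWT, and 11.3, 47.2, 0 and 4.25 CPM in FLKO. Paneth cell genes, of which 4 of 9 had positive slopes on Fgf15, included 3 that passed for the LKO difference in males, Itln1 (log2 difference 0.66, SE 0.069), Lyz1 (0.63, SE 0.086) and Mmp7 (0.47, SE 0.079), with edgeR adjusted p of 0.00061, 0.0089 and 0.044. Without MWT replicate 2, Mmp7 had 0.42 (SE 0.082, edgeR adjusted p 0.124), and the others still passed. Over all genes tested in males, 8 of 15169 (0.0527%) passed. In females without the B cell-rich libraries, 0 of the 9 Paneth cell genes passed for the LKO difference, and all 9 were positive (median 0.16).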
